A study of Mus musculus with 15 samples.

Results

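Marginal zone B cell markers are the genes by which B cells of the splenic marginal zone are usually told from other B cells. The 8 genes followed here were S1pr3, Cr2, Cd1d1, Cd9, Asb2, Dtx1, Notch2 and Mzb1, of 18193 genes represented on the arrays. They were chosen by name, with earlier results of these data known. Every probe set annotated to 1 of them alone was taken, which gave 13 of 45037 probe sets. Each gene is described by its brightest probe set unless another is named.

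Marginal zone B cells lie where blood enters the white pulp of the spleen and answer blood-borne antigen quickly. Notch2 signalling, driven by the ligand Dll1 on stromal cells, is needed for them to form, and Dtx1, Nrarp and other genes respond to it. Receptors for sphingosine-1-phosphate hold the cells at the margin against the pull of the follicle, and high surface complement receptor CR2 and CD1d are their usual surface marks.

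The samples were AM-14 B cells, which carry a transgenic receptor against the animal's own IgG (a rheumatoid factor), and RNA was measured on 15 Affymetrix arrays in 5 groups of 3. Replicates 1 and 2 of every group were labelled with the Enzo kit and replicate 3 with the Ambion kit. The groups were cells given F(ab')2 fragments of goat anti-mouse IgM (called anti-IgM), which bind the B cell receptor; a phosphorothioate CpG oligonucleotide (CpG), a ligand of the DNA sensor TLR9; PL2-3, which the labels describe as a chromatin immune complex; both anti-IgM and CpG (anti-IgM+CpG); and media alone. The anti-IgM+CpG group was taken from its titles, which list both agents, although its treatment entry says none. All groups share the AM-14 receptor, so none shows a B cell with an ordinary repertoire, and doses, times, purification and the origin of replicates are not given in the sources used here. With no label saying that replicates came from separate mice or cultures, p-values measure only the spread between these arrays. In such bulk RNA, fewer marginal zone cells and less RNA per cell cannot be told apart.

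The labels call the cells B cells, not marginal zone B cells, and the 12 genes of the B cell lineage list on the array were at or above the array's median on all 15 arrays. Of the 8 members, 7 were also at or above the median on all 15 arrays, and Cd1d1 on 13 of 15. The anti-IgM+CpG arrays stood apart: Xist, which the inactive X chromosome transcribes in females, ranged over 321 to 589 there, against 4252 to 15543 on the 12 arrays of the other groups. Their ratio of 5′ to 3′ beta-actin control signal was 0.105 to 0.193, against 0.335 to 0.747 on the 8 Enzo arrays of the other groups and 0.108 to 0.201 on the 4 Ambion arrays. What sets these arrays apart cannot be told apart from the stimulus, so each result with them carries this limit, and counts for the other groups are also given without them.

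Promoter sequence is shown for 4 members: S1pr3, Cr2 and Dtx1, the 3 largest called falls with CpG, and Cd9, which carries the longer motif given below. The windows run from 250 bases before to 50 after the RefSeq start site on GRCm38.p6, written 5′ to 3′ on the gene's strand. They lie at chr13:51408368-51408667 (plus strand) for S1pr3, at chr1:195176670-195176969 (minus strand) for Cr2, at chr5:120711620-120711919 (minus strand) for Dtx1 and at chr6:125494711-125495010 (minus strand) for Cd9. Capitals mark TGGGAA, the core of the sites bound by RBPJ, the DNA-binding partner of Notch, or GTGGGAA where that longer form, which contains it, is present.
S1pr3: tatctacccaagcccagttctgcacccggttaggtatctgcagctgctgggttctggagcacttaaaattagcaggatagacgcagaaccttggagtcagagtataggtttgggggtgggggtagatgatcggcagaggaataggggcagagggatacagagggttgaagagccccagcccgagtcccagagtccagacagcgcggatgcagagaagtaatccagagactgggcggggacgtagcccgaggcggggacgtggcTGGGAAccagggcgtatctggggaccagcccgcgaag
Cr2: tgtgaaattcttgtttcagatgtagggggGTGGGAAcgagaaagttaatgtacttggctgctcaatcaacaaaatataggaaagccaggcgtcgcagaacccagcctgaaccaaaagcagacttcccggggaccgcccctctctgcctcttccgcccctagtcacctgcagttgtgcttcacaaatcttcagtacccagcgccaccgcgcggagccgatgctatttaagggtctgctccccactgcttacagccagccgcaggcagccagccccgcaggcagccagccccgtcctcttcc
Dtx1: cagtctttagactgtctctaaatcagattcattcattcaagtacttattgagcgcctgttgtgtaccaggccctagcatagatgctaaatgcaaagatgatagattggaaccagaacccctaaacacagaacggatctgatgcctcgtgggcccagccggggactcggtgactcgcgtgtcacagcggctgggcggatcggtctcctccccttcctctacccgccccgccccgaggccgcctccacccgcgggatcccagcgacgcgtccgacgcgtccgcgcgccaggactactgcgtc
Cd9: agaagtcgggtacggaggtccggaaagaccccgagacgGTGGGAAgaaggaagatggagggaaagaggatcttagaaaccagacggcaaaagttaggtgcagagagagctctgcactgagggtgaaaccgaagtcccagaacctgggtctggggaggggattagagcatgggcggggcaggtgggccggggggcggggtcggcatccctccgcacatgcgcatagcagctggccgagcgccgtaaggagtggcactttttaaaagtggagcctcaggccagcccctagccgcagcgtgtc

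On either strand, TGGGAA was present in 3 of the 7 promoter windows used, which belong to 6 of the members, and in 25.6% of all 32851 windows. Cd1d1 had no entry among all windows, and Mzb1 had none among the 7 used. A chromosome left out for the members was kept in the count over all windows, so the 2 shares rest on unlike rules. It began 13 bases after the start site in S1pr3, 220 bases before it in Cr2 and 211 bases before it in Cd9. GTGGGAA was present in the Cr2 and Cd9 windows, 2 of 7, and in 6.38% of all windows. The windows of Dtx1, Notch2 and both windows of Asb2 held neither. A match of letters describes the window and is not a site of binding.

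Against media, 3 to 7 of the 8 members fell with each stimulus, and S1pr3 was the one member called in both directions, depending on the agent. With anti-IgM, 1 of 8 members rose (S1pr3) and 3 fell (Asb2, Notch2 and Mzb1), where 9.07% of the 13160 genes tested rose and 7.81% fell. CpG lowered 5 of 8 (S1pr3, Cr2, Cd1d1, Asb2 and Dtx1) and raised none, where 15.1% of all genes tested fell and 12.3% rose. PL2-3 lowered 5 of 8 (Cr2, Asb2, Dtx1, Notch2 and Mzb1), and raised none, where 12.2% of all genes tested fell and 11.4% rose. With anti-IgM+CpG, 7 of 8 fell, all but S1pr3, where 23.8% of all genes tested fell and 16.7% rose. The calls are limma tests at an adjusted p under 0.05, taken over all 27881 probe sets tested. Counts of the gene lists below are to be read beside these shares of all genes tested. The members' median log2 change was -0.74 with anti-IgM, -1.50 with CpG, -1.03 with PL2-3 and -1.51 with anti-IgM+CpG, beside -0.13, -0.21, -0.10 and -0.29 over all genes tested. The 4 comparisons share the media arrays and are not independent of one another.

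How the arrays are scaled bears on these counts. The deposited signals put the median change of all probe sets at -0.13 with anti-IgM, -0.22 with CpG, -0.12 with PL2-3 and -0.38 with anti-IgM+CpG. With every array shifted to the same median these became 0.12, 0.14, 0.07 and 0.21, and the share of called probe sets that were higher became 78.2%, 76.4%, 65.2% and 74.8%, against 54.2%, 44.4%, 47.0% and 34.5% with the deposited scaling. Members called were then 3, 3, 4 and 4, and no called member turned its direction. Of the 27881 probe sets tested, 3226, 5434, 4179 and 8987 were then called, against 3576, 6069, 5162 and 10407 with the deposited scaling. Without the anti-IgM+CpG arrays in the fit, members called were 5 with anti-IgM, 7 with CpG and 6 with PL2-3. Calls over all probe sets also rose in that fit, to 5000, 7644 and 6622.

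**Figure D1:**
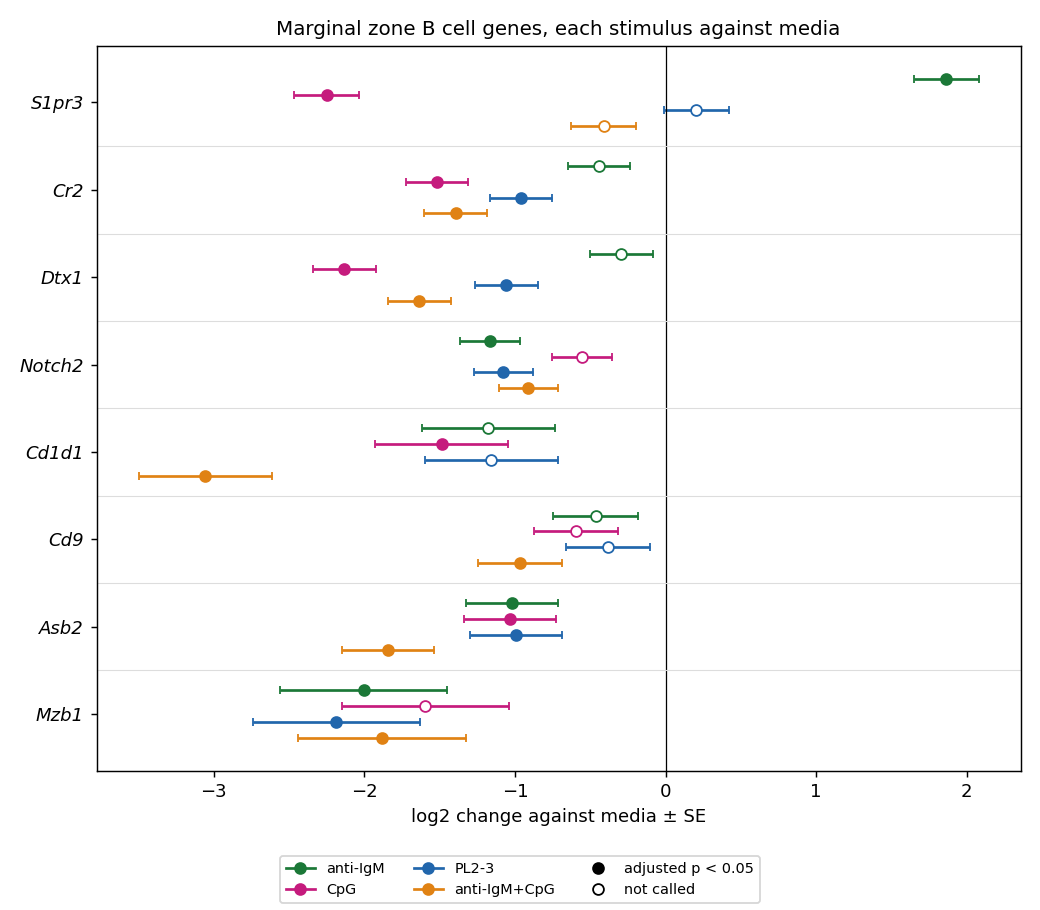
Log2 change against media (x axis, ± SE, 3 arrays a group) of the 8 marginal zone genes (rows) for anti-IgM, CpG, PL2-3 and anti-IgM+CpG. Filled points had an adjusted p under 0.05; S1pr3 is the row with a filled point above 0 (1.86, anti-IgM) and another below it (-2.25, CpG), and all filled points of the other 7 genes lie below 0.

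S1pr3, receptor 3 for sphingosine-1-phosphate, which marks marginal zone B cells among mature B cells, was raised by anti-IgM and lowered by CpG. Its signals were 10172, 11455 and 10455 with anti-IgM and 631, 685 and 372 with CpG. They were 2724, 3531 and 3851 with PL2-3, and 2390, 1938 and 2152 with anti-IgM+CpG. On media arrays they were 2952, 2479 and 3271. No anti-IgM array and no CpG array overlapped media, while PL2-3 arrays lay among and above the media arrays, and anti-IgM+CpG arrays all lay just below them. The log2 change was 1.86 ± 0.22 with anti-IgM (SE, adjusted p = 7.27e-05) and -2.25 ± 0.22 with CpG (adjusted p = 4.38e-06). PL2-3 gave 0.20 ± 0.22 (adjusted p = 0.585; 95% interval -0.25 to 0.66), and anti-IgM+CpG gave -0.41 ± 0.22 (adjusted p = 0.147; interval -0.87 to 0.05). With arrays shifted to the same median the last value was 0.19, still not called.

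The order of S1pr3 levels was anti-IgM, PL2-3, media, anti-IgM+CpG and CpG from high to low. Neighbours at the ends differed: PL2-3 was below anti-IgM by -1.66 ± 0.22 on the log2 scale (adjusted p = 0.00178), and anti-IgM+CpG was above CpG by 1.84 ± 0.22 (adjusted p = 0.00016). The 3 groups in the middle were not separated, PL2-3 against anti-IgM+CpG included (0.61 ± 0.22, adjusted p = 0.127). S1pr3 was the single member called between PL2-3 and anti-IgM, where 0.243% of all genes tested were lower. Adding CpG to anti-IgM lowered S1pr3 by -2.27 ± 0.22 against anti-IgM alone (adjusted p = 2.07e-05). CpG alone against anti-IgM alone gave -4.11 ± 0.22 (adjusted p = 9.80e-09). With its probe sets averaged in place of the brightest, the PL2-3 against anti-IgM value was -0.91 with an adjusted p of 0.359.

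A second S1pr3 probe set, 1437173_at, ran the same way at lower signal. It had signals of 1296, 2594 and 1580 with anti-IgM and 33.2, 52.7 and 156 with CpG. It had 737, 644 and 667 with PL2-3 and 481, 667 and 304 with anti-IgM+CpG, against 794, 1079 and 412 on media arrays. CpG lowered it by -2.42 (adjusted p = 0.000325), and all 3 CpG arrays were below their array's median there. The anti-IgM change was 1.21 with an adjusted p of 0.0511, and 0.0488 with the replicate number as a block. The remaining probe set, 1460661_at, was at or above the array median on 1 of 15 arrays, with signals of 29.1 to 671, and was not tested.

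**Figure D2:**
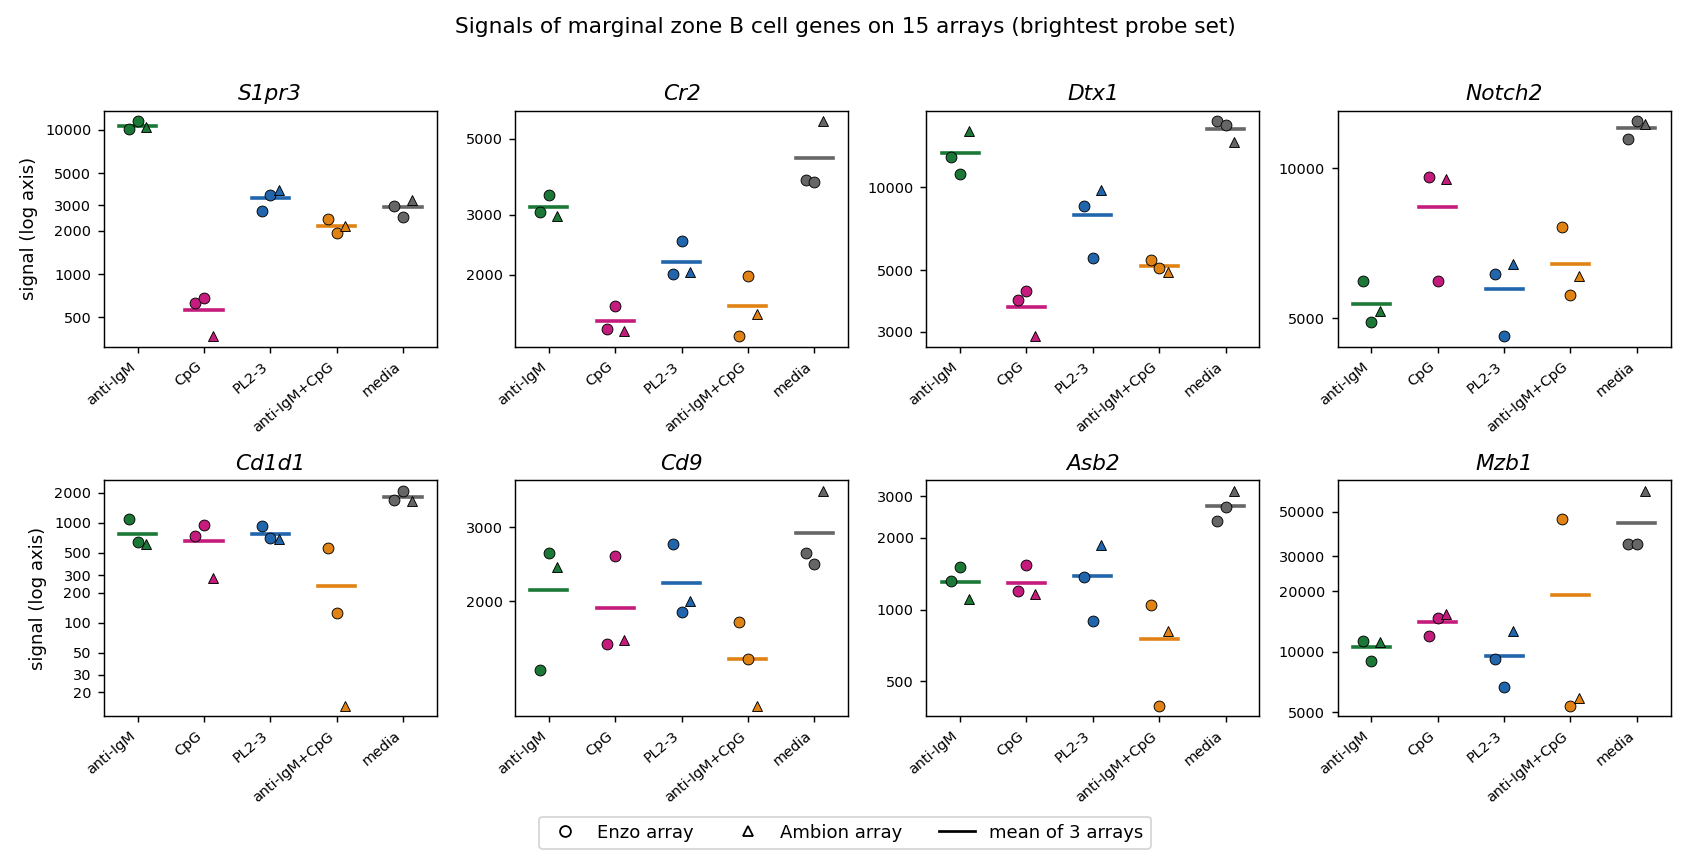
Deposited signal (y axes, logarithmic) of each marginal zone gene on the 15 arrays, by group, with circles for Enzo and triangles for Ambion arrays and a bar at the mean of 3. S1pr3 is highest on the anti-IgM arrays (10172 to 11455), while the other genes are highest on the media arrays on average.

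Other receptors and signalling genes that place B cells in the spleen were mostly lower where called. Of 14 tested genes for sphingosine-1-phosphate receptors and positioning, 1 rose and 6 fell with anti-IgM, 1 rose and 7 fell with CpG and with PL2-3, and 1 rose and 8 fell with anti-IgM+CpG. Their median log2 changes were -0.68, -0.77, -0.92 and -1.21. S1pr4, another receptor of the family, fell with all 4 stimuli, by -2.25 ± 0.30, -2.91 ± 0.30, -2.25 ± 0.30 and -3.29 ± 0.30 (adjusted p at most 0.000201). S1pr1, which draws lymphocytes toward blood, had -2.12 with anti-IgM, -1.37 with CpG (adjusted p = 0.0636), -1.70 with PL2-3 and -2.39 with anti-IgM+CpG, and all but the CpG value were called.

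Cnr2, the cannabinoid receptor that also holds marginal zone B cells in place, fell with every stimulus. Its signals were 612, 899 and 508 with anti-IgM and 917, 961 and 328 with CpG. With PL2-3 they were 453, 297 and 581, and with anti-IgM+CpG 221, 50.6 and 35.8, against 6007, 4508 and 4541 on media arrays. No stimulated array reached any media array, and the log2 changes were -2.79, -2.76, -3.32 and -4.98, each ± 0.38 (adjusted p at most 0.000238). The genes that rose, named after their values were seen, were Gpr183, a guidance receptor for the outer follicle, with anti-IgM (1.08, adjusted p = 0.00311), and Ccr7, a receptor for the T zone, with CpG (1.09), PL2-3 (0.98) and anti-IgM+CpG (0.99). Thus S1pr3 and Gpr183 were the 2 positioning receptors called higher with anti-IgM.

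**Figure D3:**
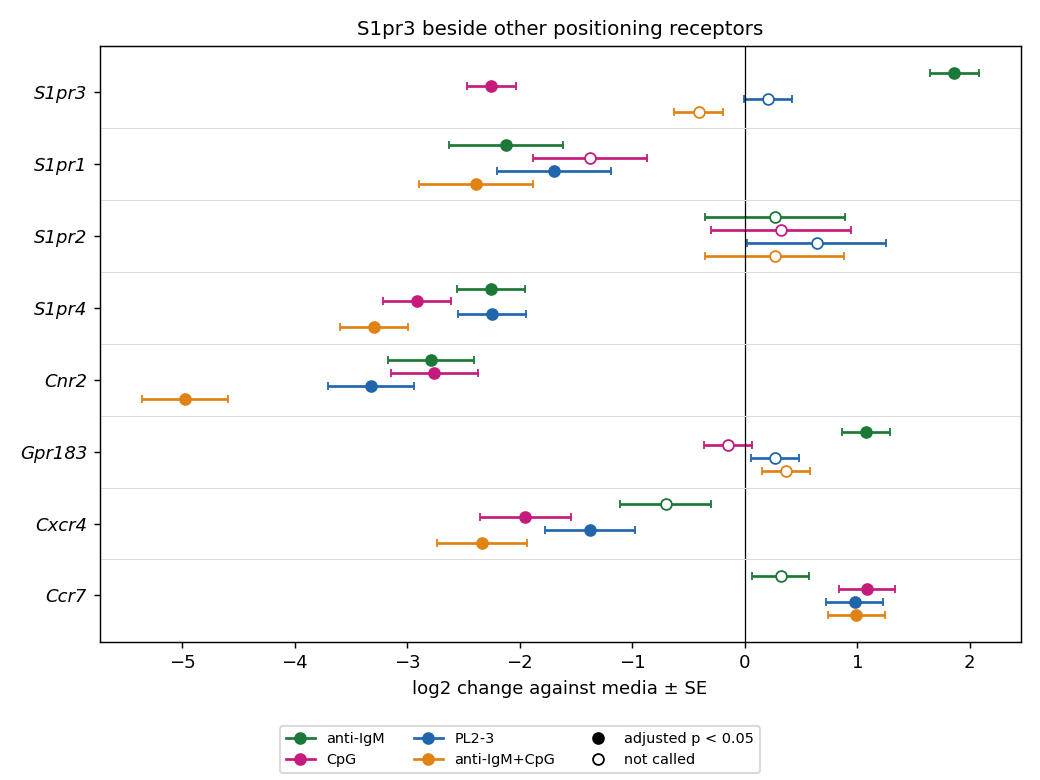
Log2 change against media (x axis, ± SE) of S1pr3 and 7 other positioning receptors (rows) for the 4 stimuli, filled where the adjusted p was under 0.05. S1pr4 and Cnr2 lie left of 0 with all 4 stimuli (-2.25 to -4.98), and S1pr3 lies right of 0 with anti-IgM (1.86).

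Cr2, which encodes complement receptors 1 and 2 in mice, was highest in media and lowest with CpG, alone or combined. Its signals were 3056, 3435 and 2980 with anti-IgM, and 1389, 1623 and 1371 with CpG. With PL2-3 they were 2009, 2511 and 2042, and with anti-IgM+CpG 1324, 1981 and 1540, against 3799, 3743 and 5627 on media arrays. No stimulated array reached the lowest media array. The log2 change was -1.52 ± 0.21 with CpG (adjusted p = 8.22e-05), -0.96 ± 0.21 with PL2-3 (adjusted p = 0.00368) and -1.39 ± 0.21 with anti-IgM+CpG (adjusted p = 9.09e-05). With anti-IgM it was -0.44 ± 0.21 (adjusted p = 0.190; interval -0.88 to -0.0044).

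By mean signal the order was media, anti-IgM, PL2-3, anti-IgM+CpG and CpG. Between stimuli, Cr2 was lower with CpG than with anti-IgM (-1.07 ± 0.21, adjusted p = 0.00513) and lower with anti-IgM+CpG than with anti-IgM (-0.95 ± 0.21, adjusted p = 0.0131). PL2-3 lay between and was called apart from neither anti-IgM (-0.52, adjusted p = 0.697) nor CpG (0.56, adjusted p = 0.277). On the Enzo arrays alone the PL2-3 against media change was -0.73 (adjusted p = 0.0718). The anti-IgM+CpG against anti-IgM call was lost with arrays shifted to the same median (-0.60, adjusted p = 0.116), with the compared groups only (adjusted p = 0.0790) and without anti-IgM replicate 2 (adjusted p = 0.0696).

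Follicular dendritic cells also make Cr2. The summed signal of 7 genes of these and other stromal cells was 7360 to 14210 with anti-IgM, 4400 to 10292 with CpG, 7640 to 11494 with PL2-3 and 3529 to 4547 with anti-IgM+CpG, against 18531 to 20137 on media arrays. Of all genes tested, 7.81%, 15.1%, 12.2% and 23.8% fell with the 4 stimuli in that order. Of the 7, 1, 4, 2 and 4 fell and none rose. Fcgr2b, an inhibitory Fc receptor that B cells also carry, was the leading one, with -2.18, -2.45, -2.33 and -3.35, and Cxcl13 and Pdpn had adjusted p of 0.159 or more throughout. No gene of the list was at 0, and its part in the Cr2 result was not tested.

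Cd9, a tetraspanin on marginal zone and B-1 cells, had the fewest calls. Its signals were 1369, 2609 and 2415 with anti-IgM, 1581, 2567 and 1613 with CpG, and 2738, 1885 and 2001 with PL2-3. With anti-IgM+CpG they were 1783, 1457 and 1124, against 2610, 2453 and 3664 on media arrays. Only the anti-IgM+CpG arrays all lay below media, and that change, -0.96 ± 0.28, was the single call (adjusted p = 0.0132). By mean signal the order was media, PL2-3, anti-IgM, CpG and anti-IgM+CpG, with no call between stimuli. The other stimuli gave -0.46, -0.59 and -0.38 (adjusted p = 0.328, 0.147 and 0.40). The call was lost with quantile normalization (-0.67, adjusted p = 0.0904), with arrays shifted to the same median (-0.37, adjusted p = 0.393), on Enzo arrays (adjusted p = 0.163), and without media replicate 3 (adjusted p = 0.0838) or anti-IgM+CpG replicate 3 (adjusted p = 0.0545).

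Platelets carry much CD9 as well. The summed signal of 6 platelet genes was 3069 to 4094 with anti-IgM, 2615 to 3689 with CpG, 3193 to 3967 with PL2-3 and 2381 to 4826 with anti-IgM+CpG, against 6278 to 10330 on media arrays. With the stimuli in that order, 7.81%, 15.1%, 12.2% and 23.8% of all genes tested fell. Of 5 platelet genes tested, 2, 2, 2 and 3 fell and none rose. Among them were Pf4, platelet factor 4, with -1.07, -1.30, -1.20 and -1.59, and the integrin Itgb3 with -1.95, -2.26, -2.33 and -2.36. The anti-IgM call of Pf4 was lost under 14 of 30 settings or left-out arrays. None was at 0, and their part in the Cd9 values was not tested.

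Of 7 tested genes of other tetraspanins and their partners, anti-IgM lowered 1, CpG 4, PL2-3 2 and anti-IgM+CpG 4, and Cd81 rose with the last 3 stimuli. Cd81, a widely expressed tetraspanin, had -0.44 (adjusted p = 0.0799) with anti-IgM, 0.97 with CpG, 0.70 with PL2-3 and 0.85 with anti-IgM+CpG (adjusted p at most 0.00492). Cd37, a leukocyte tetraspanin, fell with all 4 (-0.96, -0.68, -1.13 and -1.30). The tetraspanin genes thus ran in different directions from one another.

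Cd1d1 encodes CD1d, which presents lipids to NKT cells. Its brightest probe set, 1449131_s_at, whose suffix marks probes shared between transcripts and which may read the near copy Cd1d2, had 1082, 642 and 614 with anti-IgM and 744, 956 and 279 with CpG. With PL2-3 it had 934, 698 and 686, and with anti-IgM+CpG 560, 125 and 14.7, against 1698, 2077 and 1654 on media arrays. All 12 stimulated arrays lay below every media array, and 2 of the 3 anti-IgM+CpG arrays fell below their array's median. The log2 changes were -1.18 ± 0.44 with anti-IgM (adjusted p = 0.0965), -1.49 ± 0.44 with CpG (adjusted p = 0.0234), -1.16 ± 0.44 with PL2-3 (adjusted p = 0.0815) and -3.06 ± 0.44 with anti-IgM+CpG (adjusted p = 7.15e-05).

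The second Cd1d1 probe set, 1449130_at, had 597, 584 and 469 with anti-IgM and 261, 635 and 320 with CpG. It had 848, 495 and 309 with PL2-3 and 182, 125 and 191 with anti-IgM+CpG, against 1618, 1134 and 1416 on media arrays. Again no stimulated array reached media, and here all 4 stimuli were called: -1.22 (adjusted p = 0.0301), -1.67 (adjusted p = 0.00268), -1.31 (adjusted p = 0.0154) and -2.60. The anti-IgM call of this probe set was lost with equal array medians (adjusted p = 0.0741) and without the kit term (adjusted p = 0.0514). It was also lost with quantile normalization, without the filter or added constant, and without media replicate 1 or 3 or any anti-IgM array. The PL2-3 call here was lost without media replicate 1 or 3 or PL2-3 replicate 2 or 3 (adjusted p up to 0.10). On Enzo arrays both were lost (adjusted p = 0.176 and 0.185). Cd1d2 itself had signals of 37.1 to 367 over the 15 arrays and was not tested. With the anti-IgM+CpG arrays left out, the brightest probe set was called with anti-IgM (adjusted p = 0.0107) and PL2-3 (adjusted p = 0.00889). The CpG call was lost with arrays shifted to the same median (adjusted p = 0.0969), with quantile normalization (adjusted p = 0.102), without the added constant (adjusted p = 0.127), without the kit term (adjusted p = 0.0840), on Enzo arrays (adjusted p = 0.168), and without media replicate 2 (adjusted p = 0.0529) or 3 (adjusted p = 0.126) or CpG replicate 1 (adjusted p = 0.0614) or 3 (adjusted p = 0.117).

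In the order of Cd1d1 levels anti-IgM, PL2-3 and CpG followed media and lay close together, with anti-IgM+CpG last. Anti-IgM+CpG was lower than anti-IgM by -1.88 ± 0.44 (adjusted p = 0.0192), PL2-3 was higher than anti-IgM+CpG by 1.90 ± 0.44 (adjusted p = 0.0431), and anti-IgM+CpG against CpG gave -1.57 ± 0.44 (adjusted p = 0.0549). Cd1d1 was the single member called between PL2-3 and anti-IgM+CpG, where 1.27% of all genes tested were higher, and that call was lost under 10 of the 13 other settings with a test that keep all replicates or 1 kit. Without anti-IgM+CpG replicate 1 the value against CpG was -2.21 (adjusted p = 0.00232). Without anti-IgM+CpG replicate 2 the value against anti-IgM was -1.65 (adjusted p = 0.0856), and without anti-IgM replicate 1 or 3 its adjusted p was 0.0736 or 0.0739. That call was also lost with labelling read from the beta-actin ratio (-1.52, adjusted p = 0.225), without the kit term (adjusted p = 0.122), with the compared groups only (adjusted p = 0.114), with quantile normalization (adjusted p = 0.0835), on Enzo arrays (adjusted p = 0.0738) and with equal array medians (adjusted p = 0.0518).

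Of the 3 tested genes for CD1d partners and lipid loading, Ctss, the protease cathepsin S, fell with all 4 stimuli (-0.67, -0.52, -0.68 and -0.68), and Psap, the precursor of the saposins that load lipids, fell with CpG (-0.92, adjusted p = 0.00412). B2m, the light chain of CD1d, had -0.05, 0.05, -0.07 and 0.06 (adjusted p of at least 0.801). B2m was thus not called with any stimulus while Cd1d1 signals were lower.

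Notch2, the receptor on which marginal zone B cells depend, was lowered by anti-IgM, PL2-3 and anti-IgM+CpG. Its signals were 5954, 4909 and 5162 with anti-IgM, and 9599, 5944 and 9523 with CpG. With PL2-3 they were 6142, 4610 and 6411, and with anti-IgM+CpG 7633, 5566 and 6067, against 11445, 12408 and 12265 on media arrays. No stimulated array reached media, and CpG replicate 2 lay well below the other 2 CpG arrays. The log2 changes were -1.17 ± 0.20 with anti-IgM (adjusted p = 0.00113), -1.08 ± 0.20 with PL2-3 (adjusted p = 0.00117) and -0.91 ± 0.20 with anti-IgM+CpG (adjusted p = 0.00205). With CpG it was -0.56 ± 0.20 (adjusted p = 0.0554), and 0.0277 with the replicate number as a block.

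By mean signal the order was media, CpG, anti-IgM+CpG, PL2-3 and anti-IgM. Among stimuli no Notch2 difference was called, with -0.52 for PL2-3 against CpG (adjusted p = 0.288) and 0.61 for CpG against anti-IgM (adjusted p = 0.118). Without CpG replicate 2 CpG against anti-IgM gave 0.83 (adjusted p = 0.0289). The CpG change against media was called without CpG replicate 1 (adjusted p = 0.0433), without the anti-IgM+CpG arrays (adjusted p = 0.0327) and with quantile normalization (-0.76, adjusted p = 0.00918). The anti-IgM+CpG call was lost with arrays shifted to the same median (-0.32, adjusted p = 0.376), and the PL2-3 call with probe sets averaged (-0.74, adjusted p = 0.0556). A dimmer probe set, 1451889_at, had signals of 87.6 to 1123 and was called with anti-IgM+CpG alone (-1.81, adjusted p = 0.0103). That call was lost with labelling read from the beta-actin ratio (-0.66, adjusted p = 0.351), without the kit term (adjusted p = 0.0808), with quantile normalization (adjusted p = 0.0514) and without media replicate 3 (adjusted p = 0.0674).

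Dtx1, deltex 1, an E3 ligase that modulates Notch receptors and whose own expression rises with Notch signalling, was one of the brightest members. Its signals were 12807, 11149 and 15987 with anti-IgM, and 3911, 4206 and 2891 with CpG. With PL2-3 they were 8511, 5544 and 9744, and with anti-IgM+CpG 5467, 5096 and 4910, against 17285, 16739 and 14568 on media arrays. Anti-IgM arrays overlapped media, and all arrays of the other 3 stimuli lay below both. The log2 change was -2.13 ± 0.21 with CpG (adjusted p = 5.69e-06), -1.06 ± 0.21 with PL2-3 (adjusted p = 0.00206) and -1.63 ± 0.21 with anti-IgM+CpG (adjusted p = 2.45e-05). With anti-IgM it was -0.29 ± 0.21 (adjusted p = 0.428; interval -0.74 to 0.15), -0.51 on Enzo arrays and 0.13 on Ambion arrays.

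By mean signal the order was media, anti-IgM, PL2-3, anti-IgM+CpG and CpG, and anti-IgM+CpG against CpG was not called (0.50, adjusted p = 0.190). Dtx1 was lower with CpG than with anti-IgM (-1.84 ± 0.21, adjusted p = 3.79e-05) and lower with anti-IgM+CpG than with anti-IgM (-1.34 ± 0.21, adjusted p = 0.00173). It was higher with PL2-3 than with CpG (1.08 ± 0.21, adjusted p = 0.0105), while PL2-3 against anti-IgM was not called (-0.76 ± 0.21, adjusted p = 0.234). The PL2-3 against CpG call was lost without CpG replicate 3 (adjusted p = 0.0938), PL2-3 replicate 1 (adjusted p = 0.0675) or PL2-3 replicate 3 (adjusted p = 0.095), on Enzo arrays (0.75, adjusted p = 0.143), with equal array medians (0.90, adjusted p = 0.153), with eBayes without a trend (adjusted p = 0.0582) and with probe sets averaged (0.67, adjusted p = 0.386). S1pr3 and Dtx1 were the 2 members higher with PL2-3 than with CpG, where 1.2% of all genes tested were higher.

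A dimmer Dtx1 probe set disagreed. At 1458643_at the signals were 1497, 992 and 1138 with anti-IgM, and 1181, 1056 and 377 with CpG. They were 1023, 682 and 1259 with PL2-3 and 336, 439 and 540 with anti-IgM+CpG, against 853, 627 and 107 on media arrays. Its changes were 1.37 (adjusted p = 0.0669), 0.81, 1.07 and 0.04, none called, and media replicate 3 was its lowest array. Its anti-IgM rise was called with equal array medians (1.61, adjusted p = 0.0354) and with quantile normalization (1.56, adjusted p = 0.0342). It was also called with labelling read from the beta-actin ratio, the compared groups only and without the anti-IgM+CpG arrays (adjusted p = 0.0383, 0.0449 and 0.0420). Leaving out media replicate 1 or anti-IgM+CpG replicate 3 did the same (adjusted p = 0.0360 and 0.0454). When the probe sets were averaged, Dtx1 gave -0.66 with CpG (adjusted p = 0.129), 0.01 with PL2-3 (adjusted p = 0.988) and -0.79 with anti-IgM+CpG (adjusted p = 0.0529), so the Dtx1 calls rest on the brighter probe set.

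Of 27 tested genes of the Notch pathway besides these members, 1 rose and 3 fell with anti-IgM, 1 rose and 9 fell with CpG, 2 rose and 4 fell with PL2-3, and 2 rose and 8 fell with anti-IgM+CpG. Their median changes of -0.16, -0.31, -0.15 and -0.27 were close to those of all genes tested (-0.13, -0.21, -0.10 and -0.29). Nrarp, a feedback inhibitor that Notch signalling induces, had 698, 774 and 687 with anti-IgM, 412, 399 and 358 with CpG, 563, 673 and 632 with PL2-3, and 293, 374 and 508 with anti-IgM+CpG, against 1658, 1622 and 1780 on media arrays. No stimulated array reached media, and the changes were -1.15 ± 0.24 (adjusted p = 0.00474), -1.92 ± 0.24 (adjusted p = 4.38e-05), -1.34 ± 0.24 (adjusted p = 0.00105) and -1.94 ± 0.24 (adjusted p = 1.95e-05).

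Rbpj, which encodes RBPJ, split by stimulus. It had 13242, 13861 and 10464 with anti-IgM, 3029, 3571 and 3552 with CpG, 7369, 8392 and 5770 with PL2-3, and 6001, 5250 and 5990 with anti-IgM+CpG, against 6014, 4566 and 4551 on media arrays. Anti-IgM raised it by 1.30 ± 0.17 (adjusted p = 0.000177) and CpG lowered it by -0.56 ± 0.17 (adjusted p = 0.0283), while PL2-3 gave 0.50 (adjusted p = 0.0539) and anti-IgM+CpG 0.20 (adjusted p = 0.385). Rbpj and S1pr3 thus shared their called directions with anti-IgM and CpG, the Rbpj call with CpG being lost under 7 of 30 other settings or left-out arrays (adjusted p up to 0.571). Among enzymes that act on Notch, Psen2, a presenilin of the gamma-secretase that cuts the receptor, fell with all 4 stimuli (-0.70, -1.02, -0.75 and -1.30). The Psen2 call was lost under 6 of 30 settings or left-out arrays with anti-IgM and 4 of 30 with PL2-3 (adjusted p up to 0.208 and 0.113). Lfng, a glycosyltransferase that tunes ligand choice, fell with CpG (-1.89, adjusted p = 0.00861) and anti-IgM+CpG (-1.34, adjusted p = 0.0352) and had 0.19 and -0.44 with anti-IgM and PL2-3 (adjusted p = 0.851 and 0.594); its anti-IgM+CpG call was lost under 11 of 28 settings or left-out arrays. Maml1, the coactivator that joins the Notch and RBPJ complex, fell with all 4 (-0.65 to -0.80). Its calls were lost under 3, 2 and 2 of 30 settings or left-out arrays with anti-IgM, CpG and PL2-3. With anti-IgM+CpG its call was lost under 2 of 29 (weakest value -0.09, adjusted p up to 0.779). The other genes that rose, named after their values were seen, were Fbxw7 with CpG (0.64), and Mfng (0.66 and 0.86) and Aph1a (0.85 and 0.63) with PL2-3 and anti-IgM+CpG.

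**Figure D4:**
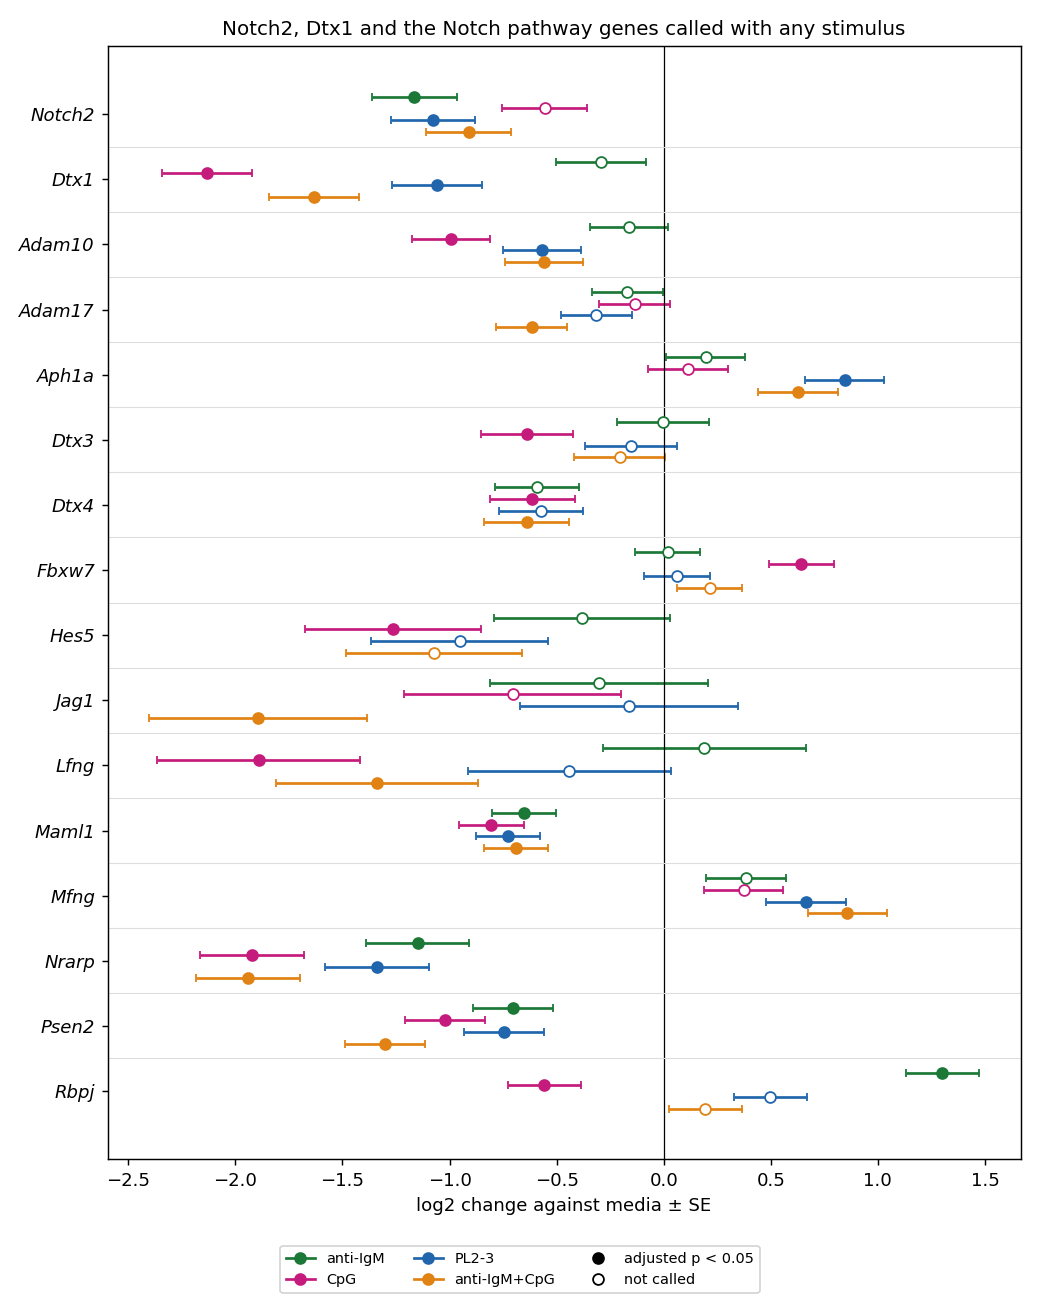
Log2 change against media (x axis, ± SE) of Notch2, Dtx1 and the Notch pathway genes called with at least 1 stimulus (rows), filled where the adjusted p was under 0.05. Nrarp, Maml1 and Psen2 are filled and left of 0 with all 4 stimuli, and Rbpj is filled to the right with anti-IgM (1.30) and to the left with CpG (-0.56).

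Asb2 encodes the substrate-binding part of a ubiquitin ligase that degrades filamins. Its signals were 1312, 1511 and 1105 with anti-IgM, and 1202, 1536 and 1158 with CpG. With PL2-3 they were 1374, 895 and 1866, and with anti-IgM+CpG 1045, 394 and 812, against 2349, 2691 and 3148 on media arrays. Every stimulated array lay below every media array, and all 4 changes were called: -1.02 ± 0.31 (adjusted p = 0.0369), -1.03 ± 0.31 (adjusted p = 0.0234), -1.0 ± 0.31 (adjusted p = 0.0315) and -1.84 ± 0.31 (adjusted p = 0.000235). The order by mean signal was media, PL2-3, anti-IgM, CpG and anti-IgM+CpG, and no difference of Asb2 between stimuli was called, with 0.02 for PL2-3 against anti-IgM (interval -0.62 to 0.67) and 0.03 for PL2-3 against CpG (interval -0.61 to 0.68). Anti-IgM+CpG against anti-IgM gave -0.83 (adjusted p = 0.105), and -1.13 (adjusted p = 0.0428) without anti-IgM+CpG replicate 1.

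The first 3 Asb2 calls were close to the threshold. The anti-IgM call was lost without the filter (adjusted p = 0.0528), and the anti-IgM and PL2-3 calls without the kit term (adjusted p = 0.0622 and 0.0519) and with eBayes without a trend (adjusted p = 0.0672 and 0.0552). With equal array medians the 3 calls had adjusted p of 0.12, 0.143 and 0.0865, and on Enzo arrays 0.257, 0.171 and 0.076. The anti-IgM call was lost without media replicate 1, 2 or 3 (adjusted p = 0.0636, 0.0968 and 0.132) and without anti-IgM replicate 1 or 3 (adjusted p = 0.0872 and 0.191). The CpG call was lost without media replicate 2 or 3 (adjusted p = 0.0644 and 0.0879) and without CpG replicate 1 or 3 (adjusted p = 0.0685 and 0.117). The PL2-3 call was lost without media replicate 1, 2 or 3 (adjusted p = 0.0542, 0.0828 and 0.11) and without PL2-3 replicate 1 or 2 (adjusted p = 0.0644 and 0.147).

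Mzb1, a cochaperone of the endoplasmic reticulum that helps assemble IgM and is abundant in marginal zone and B-1 cells and in plasma cells, was the brightest member. Its signals were 11336, 9036 and 11203 with anti-IgM, 11935, 14746 and 15394 with CpG, and 9248, 6692 and 12696 with PL2-3. With anti-IgM+CpG they were 46215, 5394 and 5901, against 34658, 34430 and 63284 on media arrays. All anti-IgM, CpG and PL2-3 arrays lay below media, while anti-IgM+CpG replicate 1 lay among the media arrays and the other 2 of its group were the lowest of all 15. The log2 changes were -2.01 ± 0.56 with anti-IgM (adjusted p = 0.0246), -2.19 ± 0.56 with PL2-3 (adjusted p = 0.0108) and -1.88 ± 0.56 with anti-IgM+CpG (adjusted p = 0.0145). With CpG it was -1.60 ± 0.56 (adjusted p = 0.0504), and 0.0392 with the replicate number as a block.

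By mean signal the order was media, anti-IgM+CpG, CpG, anti-IgM and PL2-3, with no call between stimuli, and a single array bore on this. Without anti-IgM+CpG replicate 1 the CpG change had an adjusted p of 1.62e-05, anti-IgM+CpG was lower than anti-IgM by -0.95 (adjusted p = 0.0164), against 0.12 with it, and lower than CpG by -1.36 (adjusted p = 0.00152), against -0.29 with it. The anti-IgM call was lost without media replicate 3 (adjusted p = 0.133) or any anti-IgM array (adjusted p = 0.0614, 0.0762 and 0.079). The PL2-3 call was lost without media replicate 3 (adjusted p = 0.0695) or PL2-3 replicate 2 (adjusted p = 0.0514), and the anti-IgM+CpG call without media replicate 3 (adjusted p = 0.0788), anti-IgM+CpG replicate 2 (adjusted p = 0.0919) or 3 (adjusted p = 0.0837). On Enzo arrays the 4 changes were -1.76, -1.38, -2.12 and -1.12, none called. The anti-IgM call was also lost with eBayes without a trend (adjusted p = 0.0689), and the anti-IgM+CpG call with equal array medians (-1.29, adjusted p = 0.0902) and with the compared groups only (adjusted p = 0.0948).

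Jchain, the joining chain of secreted IgM and a plasma cell product, was high on the same arrays. Its signals were 20124, 11355 and 14322 with anti-IgM, 17919, 9571 and 9669 with CpG, 14021, 8026 and 9647 with PL2-3, and 93702, 11688 and 13994 with anti-IgM+CpG, against 24719, 22550 and 86843 on media arrays. Media replicate 3 and anti-IgM+CpG replicate 1, the 2 highest Jchain arrays, were also the 2 highest for Mzb1. Its changes of -1.29, -1.62, -1.82 and -0.55 were not called (adjusted p of at least 0.0529). With PL2-3 Jchain was called under 12 of 30 other settings or left-out arrays (adjusted p down to 0.0029), with CpG under 5 and with anti-IgM under 3 of 30, and with anti-IgM+CpG under 1 of 29. The summed signal of 6 plasma cell genes, a list added after values were seen, was 64844 to 86753 with anti-IgM, 38998 to 58652 with CpG, 46847 to 63047 with PL2-3 and 53384 to 148093 with anti-IgM+CpG, against 55210 to 137270 on media arrays. Of 5 tested, Irf4, a transcription factor of activated B and plasma cells, rose with all 4 stimuli (1.90, 1.26, 1.39 and 1.56), and Xbp1 fell with CpG (-0.95) and Prdm1 with anti-IgM+CpG (-0.76, lost under 9 of 29 settings or left-out arrays). The part of plasma cells in the Mzb1 values was not tested.

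**Figure D5:**
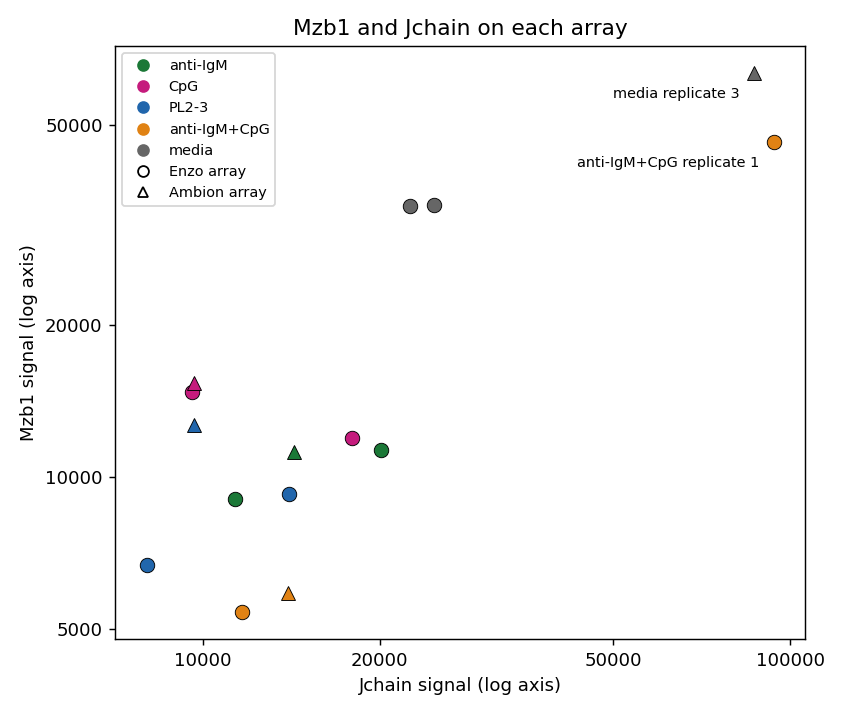
Mzb1 signal (y axis) against Jchain signal (x axis) on the 15 arrays, both axes logarithmic, coloured by group, with circles for Enzo and triangles for Ambion arrays. Media replicate 3 and anti-IgM+CpG replicate 1 lie at the upper right, with Jchain signals of 86843 and 93702, and the other 2 media arrays come next in Mzb1.

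Of 11 tested chaperones and assembly factors of the endoplasmic reticulum, 3 rose with anti-IgM, 1 rose and 2 fell with CpG, 2 rose with PL2-3 and 5 rose with anti-IgM+CpG, and their median changes were 0.57, -0.09, 0.32 and 0.77. Pdia6, a disulfide isomerase, rose with anti-IgM (0.73, adjusted p = 0.0285), PL2-3 (0.86, adjusted p = 0.00792) and anti-IgM+CpG (1.16, adjusted p = 0.000488). Canx, the chaperone calnexin, rose with the same 3 (0.57, 0.48 and 0.78), its PL2-3 call being lost under 15 of 30 settings or left-out arrays. Hsp90b1, the chaperone with which Mzb1 works, had 0.29, -0.88 (adjusted p = 0.0468), -0.06 and 0.20, and its CpG call was lost under 18 of 30 other settings or left-out arrays. Mzb1 was also lower with CpG (-1.60, adjusted p = 0.0504), and called there under 11 alternatives; the difference between Mzb1 and these genes was not tested.

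Of 6 other genes enriched in marginal zone B cells, 1 rose and 2 fell with anti-IgM, 3 fell with CpG, 1 rose and 3 fell with PL2-3, and 1 rose and 4 fell with anti-IgM+CpG, with medians of -0.56, -0.86, -0.62 and -1.12. Cd24a, a glycosylphosphatidylinositol-anchored protein, fell with all 4 (-1.25, -0.95, -1.36 and -1.0), and so did Plac8 (-0.63, -0.77, -1.41 and -1.85), whose anti-IgM call was lost under 11 of 30 settings or left-out arrays. Cd36, a scavenger receptor, fell with CpG (-1.0), PL2-3 (-0.96) and anti-IgM+CpG (-1.23), and had -0.49 with anti-IgM (adjusted p = 0.164). Ahr, the aryl hydrocarbon receptor, was the one that rose. Its signals were 16192, 16834 and 12962 with anti-IgM, 1673, 2412 and 1514 with CpG, 12664, 14848 and 10064 with PL2-3, and 8810, 12630 and 15409 with anti-IgM+CpG, against 2732, 2009 and 835 on media arrays. The changes were 3.13 ± 0.29, 0.12 ± 0.29 (adjusted p = 0.800), 2.83 ± 0.29 and 2.79 ± 0.29, the last 2 and the first with adjusted p at most 1.48e-05, and all 9 arrays of anti-IgM, PL2-3 and anti-IgM+CpG lay above every CpG and media array.

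Lists of the other mature B cell types did not move as one. Of 6 follicular genes, 2 fell with anti-IgM, 1 rose and 2 fell with CpG, and 1 rose and 3 fell with PL2-3 and with anti-IgM+CpG. Fcer2a, the low-affinity IgE receptor CD23 that marks follicular cells, had -1.32, 0.40 (adjusted p = 0.476), -1.50 and -2.36, and Fcmr, the receptor for IgM, had -0.43 (adjusted p = 0.327), -2.75, -1.84 and -3.39. Of 6 B-1 cell genes, 1 rose and 1 fell with anti-IgM, 2 rose and 3 fell with CpG, and 2 rose and 2 fell with PL2-3 and with anti-IgM+CpG, Plscr1, a scramblase, rising with all 4 (0.98, 1.13, 1.23 and 2.26). Of 12 B cell lineage genes, 8, 8, 7 and 9 fell and none rose, with medians of -0.93, -1.31, -1.39 and -1.58, and Cd79b, a chain of the receptor's signalling unit, had -2.28, -1.74, -2.49 and -3.63. The members' medians of -0.74, -1.50, -1.03 and -1.51 lay near those of the lineage genes, and the difference between the lists was not tested.

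Summed signals of markers of other cells were mostly lower on stimulated arrays than on media arrays. Of the 12 stimulated arrays, 12 lay below every media array for T cell genes, 11 for myeloid, 11 for erythroid and 10 for NK cell genes. For myeloid and erythroid genes the overlap with media came from the anti-IgM+CpG group alone. Summed T cell signal (8 genes) was 2450 to 5421 on the 12 stimulated arrays against 9077 to 13634 on media arrays, NK cell signal (6 genes) 2170 to 6803 against 6287 to 8071, myeloid signal (10 genes) 21092 to 162744 against 135632 to 261829, and erythroid signal (4 genes) 29451 to 99563 against 73900 to 139412. None of these genes rose with any stimulus. Of all genes tested, 7.81%, 15.1%, 12.2% and 23.8% fell with anti-IgM, CpG, PL2-3 and anti-IgM+CpG. With the stimuli in that order, 2, 4, 3 and 5 of 8 T cell genes fell, 1, 1, 1 and 2 of 6 NK cell genes, 2, 3, 2 and 7 of 10 myeloid genes, and 0, 2, 3 and 2 of 3 erythroid genes. Cd2, a T cell adhesion molecule also found on mouse B cells, had -2.48, -2.22, -2.48 and -2.93, and Csf1r, the receptor of macrophage growth factor, had -1.21, -1.27, -0.90 (adjusted p = 0.0658) and -3.21. No marker was at 0, and their part in the members' values was not tested.

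The members did not share 1 pattern. Over the 15 arrays, with no test since the arrays share groups and kits, Pearson's r of log2 values was highest between Cr2 and Dtx1 (0.87), Cd1d1 and Asb2 (0.80) and Notch2 and Mzb1 (0.79). It was 0.75 between S1pr3 and Dtx1 and lowest between S1pr3 and Notch2 (-0.40). Among 13140 other tested genes, those most like S1pr3 were Nsmf (0.95), Irs2 (0.95) and Tmem51 (0.94), and those most like Dtx1 were Myo1c (0.97), Tnfrsf18 (0.96) and Mmd (0.96). Cr2 was most like Sh3bgrl (0.96), Mospd2 (0.95) and Lats2 (0.94), Cd1d1 most like Fabp3 (0.95), Zfp821 (0.94) and Nudt18 (0.94), and Cd9 most like Pfkfb4 (0.89), Dlg3 (0.88) and Slc48a1 (0.88). Asb2 was most like Rfxank (0.94), Dcxr (0.94) and Ikzf1 (0.94), Notch2 most like Vrk3 (0.94), Cenps (0.90) and Sys1 (0.90), and Mzb1 most like Mppe1 (0.95), Bub1b (0.95) and H2-M3 (0.94).

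Across the 10 comparisons, those among stimuli called S1pr3 in 5 of 6. CpG against anti-IgM called 3 members lower (S1pr3, Cr2 and Dtx1), where 3.26% of all genes tested were lower, and anti-IgM+CpG against anti-IgM called 4 lower (these 3 and Cd1d1), where 4.86% were lower. Anti-IgM+CpG against CpG called S1pr3 alone, higher, where 1.84% of all genes tested were higher. Asb2, Cd9, Notch2 and Mzb1 were called in none of the 6. Within kits, 31 of the 32 member changes against media kept their sign on both the Enzo and the Ambion arrays, the exception being Dtx1 with anti-IgM. Each Ambion value sets a single array against a single media array. All these changes share the same media arrays, so they are not separate agreements, and no such count was made over all genes.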

How the data were processed

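Total RNA (Qiagen RNeasy) was labelled with biotin and read on 1 Affymetrix array a sample, per the labels' protocols. The deposited values are intensities on a linear scale, 1 per probe set and array, made with MAS5 per the submitters' processing notes; its version and scaling target are not given in the sources used here. Array medians ran from 263 to 514 and precision is limited by the number of arrays. The 64 control probe sets, which held all 3 empty cells, were left out. GEO's platform annotation gave 34945 of 45037 probe sets 1 symbol, 932 several and 9160 none, and symbols of 34741 were matched by gene ID; only probe sets with 1 symbol were named.

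The 27881 probe sets at or above their array's median on at least 3 of 15 arrays were tested as log2(signal + 75.2), the constant being the 20th percentile of all signals. It shrinks changes of dim probe sets. limma 3.58.1 (R 4.3.3; lmFit, eBayes with trend) fitted the 5 groups and the labelling kit over all 15 arrays, with 9 residual degrees of freedom. The 10 comparisons between groups used two-sided tests with Benjamini-Hochberg adjustment over all probe sets tested in each comparison. Errors printed with ± are standard errors of log2 changes, and intervals are 95%. An exact permutation test of 3 against 3 arrays cannot go below p = 0.1, so none was used. The fit was also run on simulated data with independent noise on each array. That run cannot show how the fit behaves where arrays deviate together. Sequences came from RefSeq on GRCm38.p6, and jsonlite 2.0.0, Python 3.11.15 and matplotlib 3.10.9 were also used.

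The members and gene lists were chosen with earlier results of these data known, and the plasma cell list was added after values had been seen. From each other list the rule named up to 4 genes with the largest called change in each comparison against media, or its brightest gene where none was called, and for each member the 3 genes with the highest Pearson r. B2m, Cxcl13, Pdpn, Hsp90b1, Gpr183, Ccr7, Fbxw7, Mfng, Aph1a, Fcer2a and Irf4 were named after their values had been seen where they fell outside it, as were all genes of the plasma cell list.

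Same-numbered arrays of anti-IgM, CpG, PL2-3 and media deviated together from their group means: 18 of 18 pairs correlated above 0.1 (0.19 to 0.68), against 12 of 36 pairs with different numbers. Where 1 array of the pair was from anti-IgM+CpG, 0 of 12 same-numbered and 2 of 24 different-numbered pairs did. The number and the kit overlap, since replicate 3 is the Ambion array, and a fit with the number as a block was an alternative. The others were a shift of arrays to the same median, quantile normalization, the filter dropped or required on all 15 arrays, the constant dropped or set at the 40th percentile (245), no kit term, labelling read from the beta-actin ratio, 1 kit only, eBayes without trend, the compared groups only, the fit without the anti-IgM+CpG arrays, 1 probe set per gene in the adjustment, probe sets averaged by gene, and each array left out.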

Additional observations from a re-analysis of the deposited data

How the results depend on the processing

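Counts of members called moved as follows. Against media, anti-IgM called 4 members, 2 on Enzo arrays, 2 with eBayes without a trend and 2 to 5 with an array left out. CpG called 5, 3 with array medians made equal, 3 on Enzo arrays and 3 to 7 with an array left out. PL2-3 called 5, 2 on Enzo arrays and 3 to 6 with an array left out. Anti-IgM+CpG called 7, 4 with array medians made equal and 5 to 7 with an array left out. Calls over all probe sets moved too. Anti-IgM called 3576 of them, 1913 on Enzo arrays and 2704 with eBayes without a trend. CpG called 6069, 5434 with equal array medians and 3517 on Enzo arrays. PL2-3 called 5162 and 3343 on Enzo arrays, and anti-IgM+CpG 10407 and 8987 with equal array medians. PL2-3 against anti-IgM called 1 member, 0 with the mean of probe sets and 1 with any array left out. Over all probe sets it called 88. PL2-3 against CpG called 2 members, and 1 with array medians made equal, on Enzo arrays, with eBayes without a trend and with the mean of probe sets. With an array left out it called 1 to 2. Over all probe sets it called 536, 443 with equal array medians, 306 on Enzo arrays and 316 with eBayes without a trend. PL2-3 against anti-IgM+CpG called 1, and 0 under quantile normalization, a shift to the same median, no constant or the 40th percentile, no filter, no kit term, labelling read from beta-actin, Enzo arrays, eBayes without a trend and the compared groups only, and 0 to 1 with an array left out. Over all probe sets that comparison called 468, against 138 with quantile normalization, 404 with equal array medians and 90 with labelling read from beta-actin. It called 10 without the kit term, 22 with the compared groups only and 3981 on Enzo arrays. Under the filter on all 15 arrays Cd1d1, the 1 member called, was not tested. The count of 0 there is therefore not a lost call. Anti-IgM+CpG against anti-IgM called 4 members, 2 with array medians made equal, 2 with the compared groups only and 3 to 6 with an array left out. Over all probe sets it called 2210, 1870 with equal array medians and 401 with the compared groups only. Anti-IgM+CpG against CpG called 1 member, 2 with the mean of probe sets and 1 to 3 with an array left out. CpG against anti-IgM called 3 members, and 3 to 4 with an array left out. Over all probe sets these 2 comparisons called 1225 (200 to 4483 over the alternatives) and 1111 (653 to 1665).

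With the replicate number as a block, CpG against media called 7 members, adding Notch2 (adjusted p = 0.0277) and Mzb1 (adjusted p = 0.0392), and it changed no other call of a member's brightest probe set. Among values called in either setting, the directions that turned were Dtx1 with PL2-3 (0.0086, mean of probe sets), Mzb1 for anti-IgM+CpG against anti-IgM (-0.95 without anti-IgM+CpG replicate 1, and up to 0.75 without another array) and Aph1a with anti-IgM+CpG (-0.63, mean of probe sets). Of the member values with an array left out, 1706 left the call as it was, 66 lost a call, 27 gained one and 1 turned the direction of a called value. Of the values of list genes under all alternatives, 6200 left the call as it was, 326 lost a call, 97 gained one and 1 turned the direction of a called value. Values not called could change sign, as S1pr3 with anti-IgM+CpG did (up to 0.19), and Gpr183 with CpG (-0.40 to 0.21). Over the alternatives, probe sets called ran from 1913 to 5000 with anti-IgM (3576 as reported), 3517 to 7644 with CpG (6069), 3343 to 6622 with PL2-3 (5162) and 6990 to 11327 with anti-IgM+CpG (10407). Ambion arrays alone give values without a test. The causes were not tested. Dim values limit Cd1d1 with anti-IgM+CpG, where the signal of 14.7 lies under the added constant. Signals under the constant also limit the size of the Cnr2 change with anti-IgM+CpG. The same holds for S1pr3 probe set 1437173_at with CpG, where 2 of 3 arrays lay under it.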
